A study of Mus musculus with 6 samples.

Results

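The cells described here carried transcripts of cell division in injured heart and brain. They came from the heart infarct, heart peri-infarct and brain infarct libraries, and each had a UMI (a counted RNA molecule) of at least 3 of 6 division markers, Mki67, Top2a, Birc5, Ube2c, Cdk1 and Cenpf. The members were thus chosen by measured UMIs of these 6 genes. Only cells with at least 500 detected genes and at most 10% of UMIs from mitochondrial genes were considered. The rule kept 1547 of 18708 cells in the 3 libraries, where the whole series holds 37323 such cells in 6 libraries. There were 573 of 8681 cells in heart infarct (6.60%, 95% exact interval 6.09 to 7.14), 443 of 7956 in heart peri-infarct (5.57%, 5.07 to 6.09) and 531 of 2071 in brain infarct (25.6%, 23.8 to 27.6). The rest of each library, with 0 to 2 of the markers, is called the other cells.

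All mice carried Tbx18CreER/+ and Rosa26tdT/+, so cells expressing Tbx18 during 4 days of tamoxifen were marked permanently by tdTomato, and a washout of a week followed. The 2 heart libraries used here came after ligation of the left anterior descending (LAD) artery and hold the infarct area of the left ventricle or the tissue around it, without atria. The brain library came from the necrotic core of a photothrombotic (PT) stroke of the cortex. The other 3 libraries are sham heart ventricles, sham brain and the tissue around the stroke. Cells were sorted for tdTomato, so only progeny of Tbx18-expressing cells and whatever else passed the gate could appear. The labels give no time after injury, age, sex or number of animals, and each group is 1 library. No difference between libraries therefore has a replicate check, and intervals cover counting error only.

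Dividing cells copy DNA in S phase, prepare for mitosis in G2, and condense and separate chromosomes in M phase. Genes for the later steps are switched on together late in the cycle. Tbx18 marks mural cells, the pericytes on capillaries and the smooth muscle of larger vessels, and also fibroblasts of epicardial descent in the heart. After infarction, fibroblasts are known to divide and to become contractile myofibroblasts that lay down scar collagen. Pericytes can detach, divide and contribute to scar in the injured brain.

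The 6 markers have distinct tasks in that late programme. Mki67 coats mitotic chromosomes, Top2a untangles DNA, and Birc5 (survivin) belongs to the chromosomal passenger complex. Ube2c feeds ubiquitin to the anaphase-promoting complex, Cdk1 is the kinase that starts mitosis, and Cenpf sits at kinetochores. Promoters of such genes are known for CCAAT boxes, bound by NF-Y, and for the cell-cycle homology region TTTGAA. The 250 bases before the annotated start of 5 of the 6 genes are printed because these markers define the cells and move together. Sequences and coordinates are RefSeq's on GRCm38.p6, read 5′ to 3′ along the gene, and capitals mark CCAAT and TTTGAA on either strand (as ATTGG and TTCAAA on the other strand).
Mki67, chr7:135716380-135716629, minus strand: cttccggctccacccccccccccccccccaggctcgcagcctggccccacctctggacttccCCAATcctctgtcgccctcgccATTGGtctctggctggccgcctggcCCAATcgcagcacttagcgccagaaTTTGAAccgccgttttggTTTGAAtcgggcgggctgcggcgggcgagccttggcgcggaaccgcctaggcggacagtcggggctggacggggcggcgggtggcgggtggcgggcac
Top2a, chr11:99024190-99024439, minus strand: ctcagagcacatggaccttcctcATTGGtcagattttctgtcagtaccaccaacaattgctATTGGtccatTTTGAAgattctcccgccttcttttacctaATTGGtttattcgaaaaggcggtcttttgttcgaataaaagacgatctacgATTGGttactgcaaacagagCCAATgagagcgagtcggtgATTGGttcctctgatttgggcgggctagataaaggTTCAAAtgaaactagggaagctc
Ube2c, chr2:164769679-164769928, plus strand: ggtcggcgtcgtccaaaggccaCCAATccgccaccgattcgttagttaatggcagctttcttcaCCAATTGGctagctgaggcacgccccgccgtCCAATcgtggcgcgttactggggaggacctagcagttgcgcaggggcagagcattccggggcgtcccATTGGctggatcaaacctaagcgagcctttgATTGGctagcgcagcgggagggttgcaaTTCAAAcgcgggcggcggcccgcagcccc
Cdk1, chr10:69352913-69353162, minus strand: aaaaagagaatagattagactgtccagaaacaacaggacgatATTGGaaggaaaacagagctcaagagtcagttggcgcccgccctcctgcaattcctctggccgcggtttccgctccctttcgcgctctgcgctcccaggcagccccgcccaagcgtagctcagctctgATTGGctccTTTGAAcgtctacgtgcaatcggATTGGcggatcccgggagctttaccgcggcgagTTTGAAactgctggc
Cenpf, chr1:189688087-189688336, minus strand: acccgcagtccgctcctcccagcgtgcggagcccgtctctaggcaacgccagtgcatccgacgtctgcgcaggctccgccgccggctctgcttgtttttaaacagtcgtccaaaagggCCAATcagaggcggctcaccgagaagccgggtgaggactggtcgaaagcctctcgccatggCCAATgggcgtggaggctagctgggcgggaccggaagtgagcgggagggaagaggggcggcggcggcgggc
The Top2a and Ube2c windows each held 6 CCAAT letters, and those of Mki67, Cdk1 and Cenpf held 3, 3 and 2. In the Ube2c window a forward and a reverse CCAAT overlap as CCAATTGG. TTTGAA was found 2 times in Mki67, Top2a and Cdk1 and 1 time in Ube2c, while the Cenpf window had none. Neither run of letters is in the Birc5 window on chromosome 11, from 117848987 to 117849236. CCAAT was thus in 5 of the 6 windows (83.33%) and TTTGAA in 4 (66.67%), beside 33.85% and 15.99% of all 32851 RefSeq promoter windows of that length. Among 199 windows of listed G2 and M phase genes the shares were 60.8% and 29.15%. Among 16 windows of collagen and other matrix genes, CCAAT was in 2 and TTTGAA in 4. Contractile genes had CCAAT in 9 of 21 windows (42.86%) and TTTGAA in 14.29%, and S phase genes had them in 62.22% and 13.33% of 45 windows. A match is a description of letters, not of a bound site.

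Dividing cells were deeper by their medians. Their median UMI total was 19620 in heart infarct against 10530 in the other cells, 21528 against 8644 in heart peri-infarct and 42678 against 18909 in brain infarct. Marker detection grows with depth, so shares are also given after each cell of at least 3000 UMIs was randomly thinned to 3000 UMIs. The rule then held for 3.96%, 4.17% and 10.98% of cells in the same order. At full depth it held for 1 of 13630 cells in heart sham, 2 of 2646 in brain sham and 6 of 2339 in brain peri-infarct (0.257%, 0.0942 to 0.557). Thinned, it held for 0 of 1158, 1 of 1552 and 5 of 1147 (0.436%) cells in these libraries. The 0 of heart sham allows up to 0.318% by the exact interval. Cell barcodes recur between libraries, and 72 of the 531 dividing brain cells carry one that another library also has, 57 of them with brain peri-infarct and 55 with heart peri-infarct. In all 72 the brain infarct cell was the deeper one. Without barcodes found elsewhere the brain infarct share was 23.36%, the fibroblast share of its dividing cells was 87.69% in place of 88.05%, and its gene counts were 58 higher and 48 lower in place of 64 and 51. In the hearts 8 of 573 and 10 of 443 dividing cells had such a barcode. Scrublet doublet marks fell on 16.4%, 19.2% and 3.77% of dividing cells and on 6.96%, 6.99% and 1.23% of the others, again in the order heart infarct, heart peri-infarct and brain infarct. The part of doublets in the results was not tested beyond the values without them.

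Most dividing cells were far past the threshold in the hearts. All 6 markers were detected in 301 of 573 dividing cells in heart infarct, 298 of 443 in heart peri-infarct and 238 of 531 in brain infarct. Just inside the threshold, with 3 markers, stood 103, 47 and 87 cells, and just outside it, with 2, stood 216, 143 and 159. Levels of the 6 markers, which chose the cells, are given as a description only. Mki67 stood at 442 and 604 CPM (counts scaled to a total of 1000000 UMIs) in the dividing cells of heart infarct and peri-infarct and at 107 CPM in those of brain infarct. Top2a had 477, 686 and 157 CPM, Cenpf 467, 680 and 162 CPM. Birc5 did not follow that order, with 356, 427 and 483 CPM. Ube2c had 530, 693 and 436 CPM and Cdk1 276, 391 and 205 CPM. In the other cells the 6 markers lay between 1.43 and 17.2 CPM, the highest being Birc5 in brain infarct. Of dividing brain cells 97.4% had a Birc5 UMI and 82.5% an Mki67 UMI, beside 88.7% and 93.4% in heart infarct.

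The sum of other G2 and M phase genes followed the number of markers, and that of S phase genes did so only in part. Sums were taken over 202 genes of a G2 and M phase list, without the 6 markers and without chromatin or tubulin genes, and over 52 S phase genes. The G2 and M list also holds replication and repair genes such as Gins1 and Brca1. Markers were counted at full depth and the sums after thinning. Per 3000 UMIs, the mean G2 and M sum was 4.91 UMIs in heart infarct cells with no marker, 8.44 with 2, 17.9 with 3 and 68.1 with 6. In heart peri-infarct these means were 5.32, 10.5, 19.6 and 78.8 UMIs, and in brain infarct 5.51, 8.17, 13.3 and 47.8 UMIs. The sum climbed steadily past the threshold with no gap, as the plot of cycle UMIs by marker number shows. S phase sums ended lower, at means of 9.96, 12.1 and 8.78 UMIs in cells with all 6 markers. In heart peri-infarct they peaked at 13.6 UMIs with 4 markers and in heart infarct at 10.4 UMIs with 5.

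**Figure D1:**
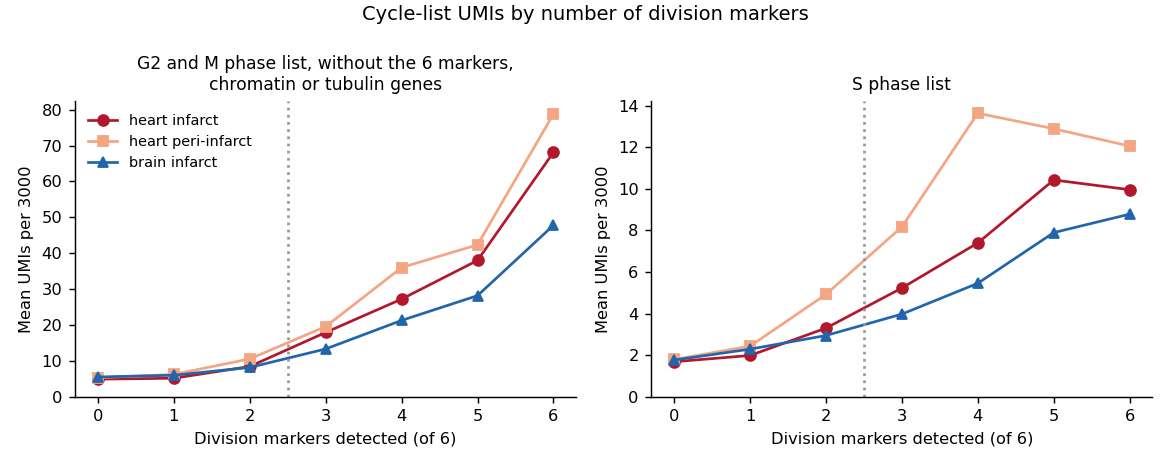
Mean UMIs per 3000 of listed G2 and M phase genes (left) and S phase genes (right) on the vertical axes, by the number of the 6 division markers detected in the cell; each point is the mean over the cells of 1 library and the dotted line is the threshold of the rule. With 6 markers the G2 and M mean reached 68.1 in heart infarct, 78.8 in heart peri-infarct and 47.8 in brain infarct, from 4.91, 5.32 and 5.51 with none. Markers were counted at full depth, where cells with 6 had medians of 21666, 23687.5 and 49564 UMIs in the same order.

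Both sums were higher in the dividing cells than in the other cells by their medians. Their median G2 and M sum was 43, 61 and 29 UMIs per 3000 in heart infarct, heart peri-infarct and brain infarct, against 5 in the other cells of each library. Their median S sum was 7, 9 and 6 UMIs, against 1, 2 and 2. The S sum exceeded the G2 and M sum in 15 of 565, 6 of 437 and 8 of 527 dividing cells. The marker rule itself favours G2 and M, and the lists differ in length. The median G2 and M sum was also the larger in the other cells. These counts therefore do not tell the phase, and the shares of phases were not estimated. Among classes with at least 20 dividing cells, the pericytes of heart peri-infarct had the highest median G2 and M sum, 82 UMIs, and brain leukocytes and heart peri-infarct mesothelial cells the lowest, 22.5 UMIs each.

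Lineage was read from 8 lists of 8 marker genes, at 3000 UMIs per cell. A cell took the class whose list had the most detected genes, with at least 2 and no tie. Dividing cells of the fibroblast class had a median of 6, 6 and 4 of the 8 fibroblast genes and 0 of every other list in heart infarct, heart peri-infarct and brain infarct. Those of the heart pericyte class had 5 and 6 of the 8 pericyte genes. Those of the heart peri-infarct endothelial class had 6 endothelial genes and 1 pericyte gene. The names describe transcripts and not descent. Among dividing fibroblast-class cells 20 of 408, 14 of 274 and 47 of 464 led the next list by a single gene.

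In heart infarct the dividing cells had nearly the same makeup as the rest of the library. The fibroblast class held 408 of 565 dividing cells (72.2%, 68.3 to 75.9) and 73.2% of the others. Pericytes held 74 (13.1%, 10.4 to 16.2) against 11.4%, and smooth muscle 18 (3.19%) against 5.02%. Mesothelial cells, which line the heart's surface, held 27 (4.78%, 3.17 to 6.88) against 2.34% (2.01 to 2.70). Leukocytes held 11, endothelium 8 (1.42%) against 2.64%, and 19 cells were tied. So 7.84% of pericytes (6.21 to 9.74), 6.79% of fibroblasts (6.17 to 7.46), 4.48% of smooth muscle cells and 13.1% of mesothelial cells (8.82 to 18.5) met the rule. Among 210 endothelial cells 3.81% met it (1.66 to 7.37). After thinning the mesothelial share was 7.77% and the fibroblast share 3.75%, with intervals that did not overlap.

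In heart peri-infarct, fibroblasts were the largest class of dividing cells and endothelium came next. Fibroblasts held 274 of 437 dividing cells (62.7%, 58.0 to 67.2) and 64.5% of the others. Endothelial cells held 81 (18.5%, 15.0 to 22.5) against 14.3% (13.5 to 15.2), with intervals that overlapped. Pericytes held 35 (8.01%) against 7.96%, mesothelial cells 22, leukocytes 10, and 11 cells were tied. Smooth muscle stood out by its absence: 4 of 382 smooth muscle cells met the rule (1.05%, 0.286 to 2.66), against 5.69% of fibroblasts (5.05 to 6.38), 5.87% of pericytes and 7.43% of endothelial cells. After thinning these were 0.524%, 4.21%, 5.20% and 5.14%, and the smooth muscle and fibroblast intervals did not overlap on either scale. The 11.3% of mesothelial cells that met the rule dropped to 3.59% when thinned, below the fibroblast share. None of 41 cardiomyocyte-class cells met it, which allows up to 8.60% by the exact interval.

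In brain infarct nearly all dividing cells were of the fibroblast class. It held 464 of 527 (88.0%, 85.0 to 90.7) and 67.4% of the others (64.7 to 70.0). Pericytes were the reverse, with 12 dividing cells (2.28%, 1.18 to 3.94) against 16.3% of the others (14.3 to 18.5). Leukocytes held 20, endothelium 3, neural cells 1 and smooth muscle 0, while 10 cells were tied and 17 fitted no list. Of the fibroblast class 35.7% met the rule (33.1 to 38.4), of the pericyte class 5.61% (2.93 to 9.59) and of leukocytes 15.5% (9.74 to 22.9). Thinned, the shares were 12.5%, 4.21% and 5.43%. The fibroblast and pericyte intervals did not overlap at either depth. The interval of brain pericytes overlapped those of heart pericytes at both depths, while that of brain fibroblasts lay above those of heart fibroblasts.

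**Figure D2:**
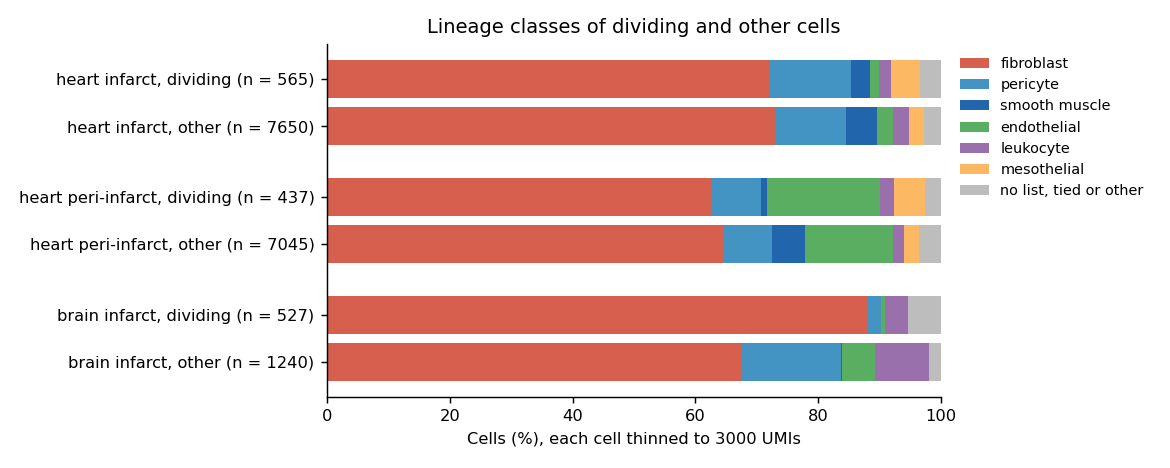
Share of cells in each lineage class (horizontal axis, %) among dividing and other cells of the 3 libraries, each cell thinned to 3000 UMIs; n is the number of cells in the bar. The fibroblast class takes 72.2%, 62.7% and 88.0% of the dividing cells of heart infarct, heart peri-infarct and brain infarct.

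**Figure D3:**
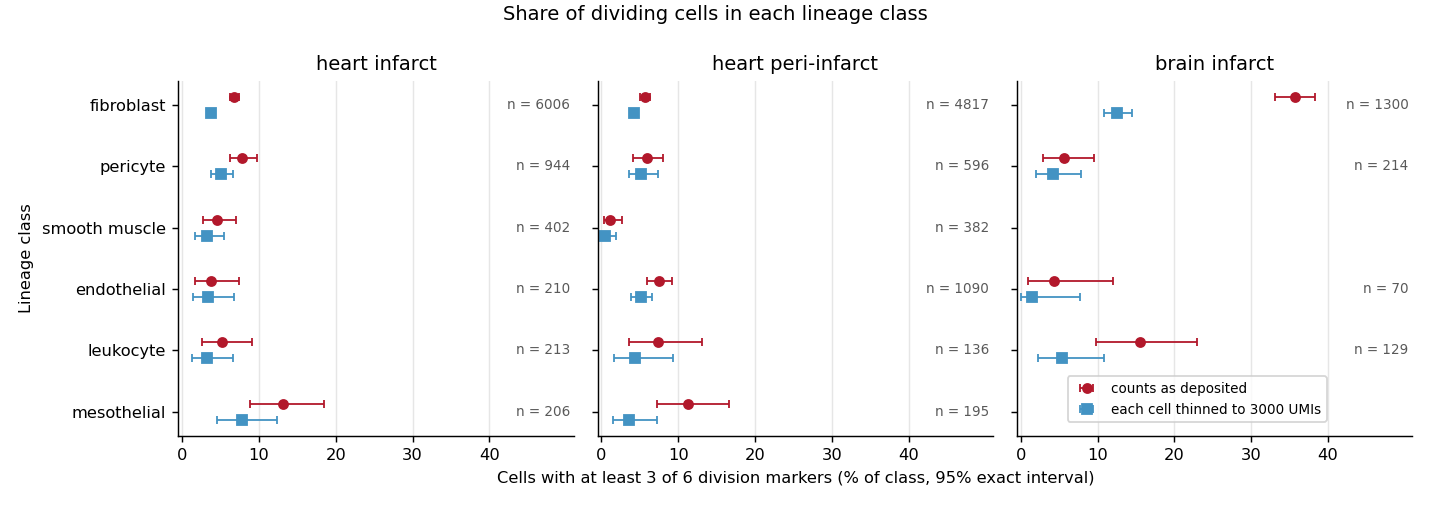
Share of the cells of each class that met the rule of 3 markers (horizontal axis, %), as deposited and after thinning to 3000 UMIs; bars are exact 95% binomial intervals, n is the number of cells in the class, and classes under 50 cells are left out. In brain infarct the fibroblast class stands at 35.7% and the pericyte class at 5.61%, while in the hearts no class passes 13.1%.

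The single defining genes at 3000 UMIs per cell are given as a description. They also stand on the lists that set the classes, so they are no separate check of them. Kcnj8 and Higd1b, a potassium channel subunit and a hypoxia-inducible gene of pericytes, had UMIs in 8.32% and 14.9% of dividing cells in heart infarct, beside 10.8% and 13.9% of the others. In heart peri-infarct they had 9.38% and 14.6% beside 10.5% and 13.8%. In brain infarct they had 1.71% and 2.47% beside 16.8% and 17.7%, so of the 3 libraries only brain infarct had fewer dividing than other cells with both genes beyond the counting intervals. In dividing fibroblast-class cells, which should lack it, Kcnj8 had UMIs in 0.980%, 2.55% and 0%, where the 0 allows up to 0.792% by the exact interval. Myh11, the myosin of smooth muscle, was found in 10.6% and 7.55% of dividing heart cells and in 0.190% of dividing brain cells, beside 10.4%, 12.8% and 2.66% of the others. Dividing fibroblast-class cells had Myh11 at 1.96%, 4.38% and 0%, with the same limit. Col1a1, the main scar collagen, was found in 89.7%, 73.2% and 93.4% of dividing cells and in 87.2%, 71.8% and 70.1% of the others. Leukocytes that were not dividing held a Col1a1 UMI in 17.3% of cells in heart infarct and 8.26% in brain infarct, the background level for this gene. Ptprc, the leukocyte CD45, was found in 0.531%, 1.60% and 0.569% of dividing cells and in none of the 408, 274 and 464 dividing fibroblast-class cells, which allows up to 0.9001%, 1.34% and 0.792%.

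Cdh5, the VE-cadherin of endothelial junctions, behaved differently in the organs. In heart peri-infarct it had UMIs in 20.4% of dividing cells and 16.4% of the others, beside 18.3% and 17.2% for Pecam1, another endothelial gene. In heart infarct both genes were rare, with Cdh5 in 1.77% and Pecam1 in 2.12% of dividing cells. In brain infarct Cdh5 was found in 20.9% of dividing cells but Pecam1 in 0.380%. The Cdh5-positive brain cells were of the fibroblast class: 100 of 464 dividing and 197 of 836 other cells of that class had a Cdh5 UMI, and 0 and 1 of these also had Pecam1. At full depth the class held 76.0 CPM of Cdh5 when dividing and 87.9 CPM otherwise. In the heart fibroblast classes Cdh5 was found in 2 of 408 and 7 of 274 dividing cells. Cdh5 alone therefore does not mark dividing endothelium in the brain library, where 3 dividing cells were of the endothelial class.

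Beyond the cycle, dividing cells were compared with the other cells of the same class and library wherever both had at least 50 cells, which gave 5 comparisons. UMIs were summed over the cells and scaled to CPM. A gene was counted as higher or lower when its mean reached 50 CPM and (CPM + 1) differed at least 2-fold. The rule chose the cells within these same libraries, so no p-value is given. In the fibroblast class of heart infarct 146 of 3027 genes were higher (4.82%) and 38 lower (1.26%). In heart peri-infarct 203 of 3190 were higher (6.36%) and 65 lower (2.04%), and in brain infarct 64 of 2725 were higher (2.35%) and 51 lower (1.87%). Pericytes of heart infarct had 178 of 3159 higher (5.63%) and 150 lower (4.75%), and endothelium of heart peri-infarct 134 of 3305 higher (4.05%) and 102 lower (3.09%). Against other cells matched as nearly as possible in UMI total, the numbers of lower genes were 16, 39 and 15 in the 3 fibroblast classes and 95 in pericytes. The endothelial count stayed within 1.5-fold. The match was incomplete in 2 comparisons: in brain infarct fibroblasts they were 43843.5 UMIs in dividing and 38151.5 in matched cells, and in pericytes 13464.5 and 12968.5, so a depth gap remained there. Higher genes outside the cycle, chromatin and tubulin lists were counted without ribosomal, mitochondrial, predicted or haemoglobin genes. They were 61, 99 and 12 in the fibroblast classes, 78 in pericytes and 60 in endothelium. In some classes these counts still hold histone genes that the lists left out, such as Hist1h2ak and Hist1h4d. They also hold genes of histone handling such as Dnajc9 and Hat1, so they are not counts of genes unrelated to the cycle.

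Cycle lists were high throughout, as the rule and the CPM filter make them, and their values are a description only. The G2 and M list here holds the 6 markers too, and a cycle gene scarce in other cells passes 50 CPM only by its level in dividing cells. Over the 10 S phase genes tested in heart infarct fibroblasts the median log2 ratio was 2.08, beside 0.06 over all tested genes. The S medians were 2.75 in heart peri-infarct and 1.48 in brain infarct fibroblasts, and the G2 and M medians 4.998, 5.71 and 2.73. Tubulin and stathmin genes, the stuff of the spindle, had medians of 2.01, 2.07 and 0.96. Stmn1, a microtubule destabiliser, had 758 CPM in dividing and 36.2 CPM in other fibroblasts of heart infarct, 1353 against 29.8 in heart peri-infarct and 502 against 169 in brain infarct. Chromatin genes had medians of 1.03, 1.15 and 0.59. The variant histone gene H2afz had 1941, 2412 and 2151 CPM in the dividing fibroblasts and 310, 266 and 607 CPM in the others. All 4 of these lists had smaller medians in brain infarct than in the hearts. Over all classes, 1022 of 1540 other cells of brain infarct held none of the 6 markers. In heart infarct and heart peri-infarct these were 6640 of 8108 and 6690 of 7513. The part of this in the organ difference was not tested.

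Some genes of RNA handling were at least 2-fold higher in dividing heart cells. For nuclear export and splicing, 8 of 20 genes passed 2-fold upward in heart infarct fibroblasts, 9 of 21 in heart peri-infarct and 1 of 21 in brain infarct, with medians of 0.93, 0.90 and 0.41. Over all tested genes 4.82%, 6.36% and 2.35% were higher, so the single brain gene is near the background. The pericyte and endothelial classes had 8 of 21 and 5 of 21, beside 5.63% and 4.05% of all genes, with medians of 0.91 and 0.73. Ddx39, a helicase of mRNA export, had 96.3 CPM in dividing and 23.8 CPM in other fibroblasts of heart infarct. Ribosome biogenesis had medians of 0.85, 0.65 and 0.42 in the fibroblast classes, with 4 of 11, 4 of 13 and 0 of 13 genes past the fold, the last no more than the background. Ran, the GTPase of nuclear transport, led that list with 776 against 213 CPM in heart infarct, 977 against 256 in heart peri-infarct and 1176 against 611 in brain infarct. Splicing medians were 0.81, 0.90 and 0.35 against depth-matched cells. The glycolysis list had heart fibroblast medians of 0.70 and 0.51 that became 0.25 and 0.06 at matched depth. Oxidative phosphorylation had 0 of 30 genes past the fold in each fibroblast class.

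**Figure D4:**
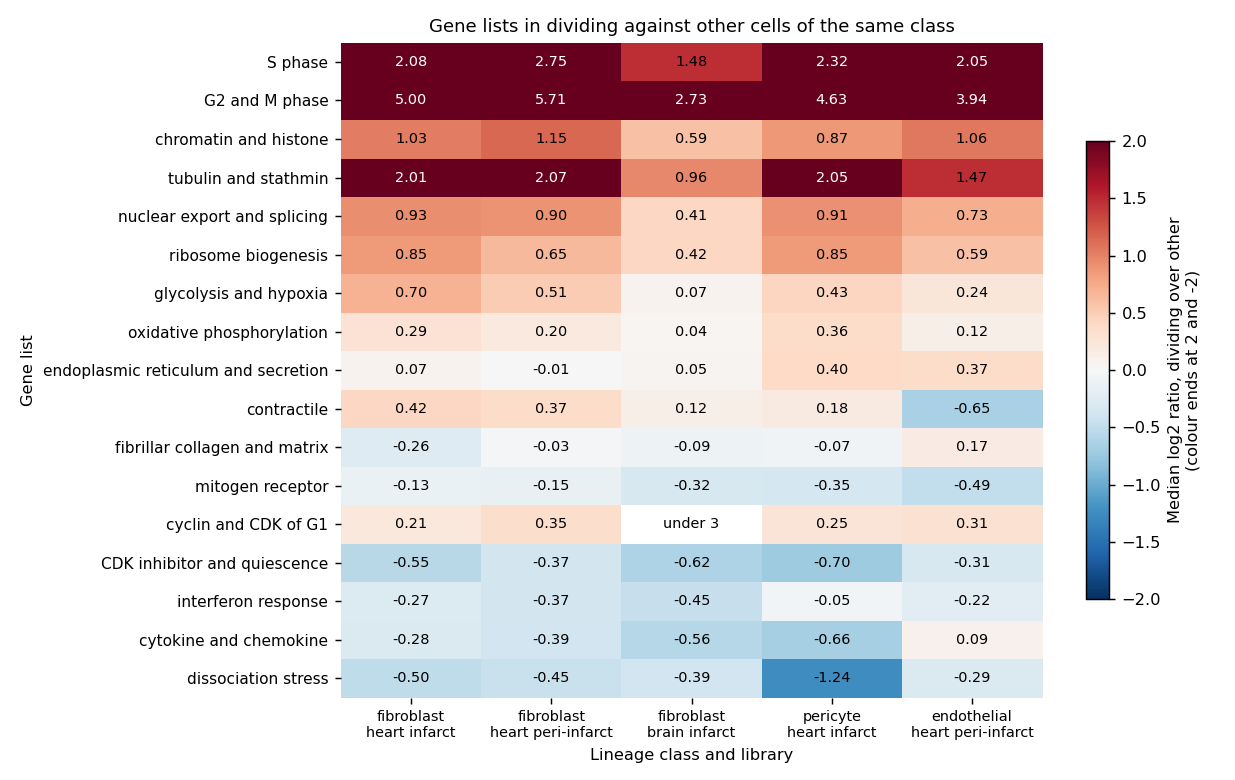
Median log2 ratio of (CPM + 1), dividing over other cells, of 17 gene lists (rows) in 5 classes (columns), written in each cell; colours end at 2 and -2, and "under 3" marks a list with fewer than 3 tested genes. The G2 and M row includes the 6 markers of the rule. The upper rows, cycle and RNA handling, are positive in all 5 columns, and the dissociation stress row is negative in all 5, with -1.24 in heart infarct pericytes.

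Across the fibroblast classes of all 3 libraries, 2196 genes were tested in each. Of these 53 were higher in all 3 and 7 were lower in all 3. Outside the cycle lists, with the same kinds of genes left out, 7 genes were higher in all 3: Selenoh, Dnajc9, Arl6ip1, Dctpp1, Lsm2, Exosc8 and Lsm3. These genes, and the 7 lower ones, were picked after their values were seen. Dnajc9, a co-chaperone of histones, had 119, 145 and 101 CPM in dividing fibroblasts of heart infarct, heart peri-infarct and brain infarct, and 21.0, 23.1 and 22.0 CPM in the others. In heart infarct its CPM ratio had an exact counting interval of 5.25 to 6.15. Each side lay close together over the 3 libraries, and the sides did not overlap. Selenoh, a nuclear selenoprotein, had 462, 604 and 597 CPM against 64.5, 53.1 and 231 CPM, so the brain's smaller ratio came from a higher level in its other cells. Arl6ip1, an endoplasmic reticulum shaping protein, had 489, 795 and 336 CPM against 118, 136 and 109 CPM. Lsm2 and Lsm3 belong to the Sm-like ring that binds U6 RNA, Exosc8 to the RNA exosome, and Dctpp1 clears modified deoxycytidine nucleotides. Their log2 ratios ran from 1.20 (Lsm3, heart peri-infarct) to 2.17 (Dctpp1, heart peri-infarct). All 7 stayed at least 2-fold higher in all 3 libraries against depth-matched cells.

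The 7 genes lower in all 3 fibroblast classes included Apoe, Selenop, Ogn, Ypel3, Dhrs3 and Islr. Apoe, the lipid carrier, had 300, 725 and 324 CPM in dividing cells and 1041, 4001 and 872 CPM in the others. Ogn (osteoglycin), a matrix proteoglycan of resting fibroblasts, had 386, 326 and 22.7 CPM against 939, 760 and 78.1 CPM. None of the 7 kept a 2-fold difference in all 3 libraries against depth-matched cells, although all 21 ratios stayed below 0. Apoe then had log2 ratios of -1.19, -1.19 and -0.79, and Ogn -0.86, -1.01 and -0.93. Apoe is also a macrophage gene. The summed level of 9 other macrophage markers in these classes was 18.2 against 87.6 CPM in heart infarct (9 of 9 lower), 58.5 against 59.3 in heart peri-infarct (6 of 9 lower) and 15.5 against 41.1 in brain infarct (7 of 9 lower), with none at 0. The part of macrophage RNA in the Apoe values was not tested.

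**Figure D5:**
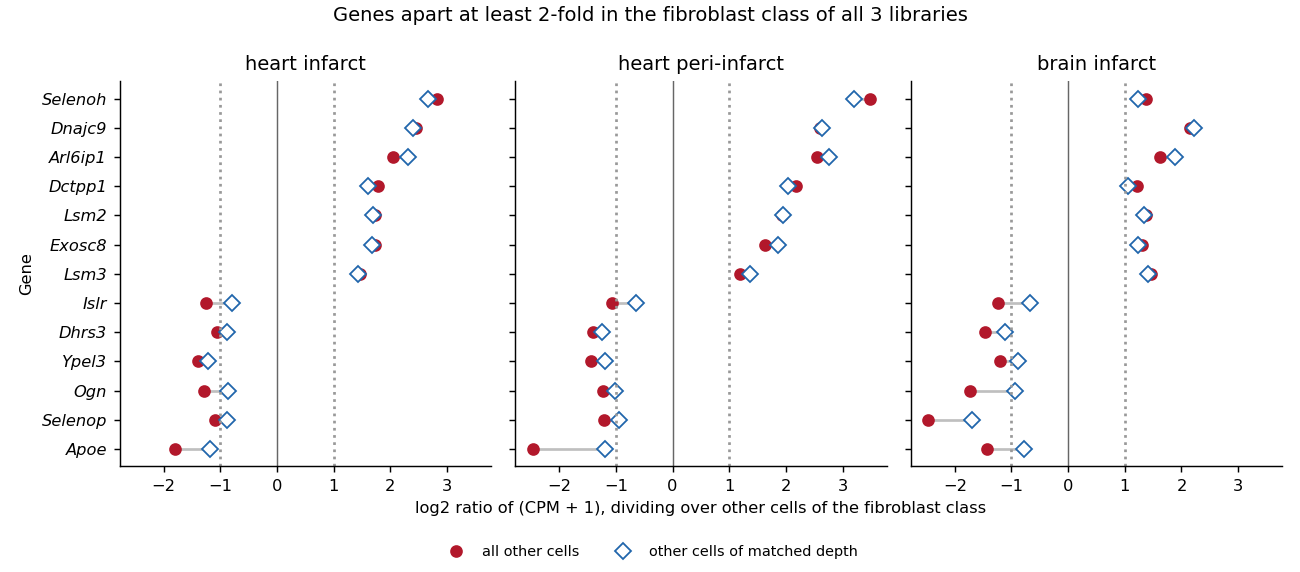
Log2 ratio of (CPM + 1), dividing over other cells of the fibroblast class (horizontal axis), for 13 of the 14 genes outside the cycle lists that were at least 2-fold apart in all 3 libraries; circles use all other cells, diamonds other cells of matched UMI total, and dotted lines mark 2-fold. The 7 higher genes keep their place with matched cells, while the lower genes shown move toward 0.

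Slfn5, Gas6 and Sfrp2 were among the lowest genes of dividing heart infarct fibroblasts, and Igfbp3 was the lowest in heart peri-infarct. In heart infarct, Gas6, a ligand of Axl induced on growth arrest, had 115 CPM in dividing and 347 CPM in other cells, a log2 ratio of -1.59 that was -1.51 at matched depth. Sfrp2, a Wnt antagonist, had 209 against 613 CPM, and Comp, a cartilage-type matrix protein of mature scar, 130 against 345 CPM. The elastin gene Eln had 1060 against 2336 CPM, which was 2.20-fold lower, and at matched depth its log2 ratio was -0.78. In heart peri-infarct, Igfbp3, which binds insulin-like growth factors, had 17.5 against 123 CPM, and Gsn, the actin-severing gelsolin of resting fibroblasts, 3601 against 12801 CPM. Gsn went from a log2 ratio of -1.83 to -0.51 with depth-matched cells. Slfn5, an interferon-inducible Schlafen gene, was low in both hearts, with 23.1 against 87.5 CPM in infarct and 19.1 against 104 CPM in peri-infarct, and -1.33 and -2.18 at matched depth. Of the 10 lowest named genes, 8 in heart infarct, 9 in heart peri-infarct and 8 in brain infarct stayed 2-fold lower at matched depth.

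The lowest genes of dividing brain fibroblasts were led by Ptgds and Apod. Ptgds, the prostaglandin D synthase of meningeal cells, had 36.7 CPM in dividing and 611 CPM in other cells, with a log2 ratio of -4.02 and of -2.07 at matched depth. The exact counting interval of its CPM ratio was 0.0559 to 0.0646. It was found in 71 of 464 dividing and 287 of 836 other cells, so most cells of both groups lacked it. Of its UMIs in dividing cells 22.7% came from 1 cell. Apod, a lipocalin, had 95.3 against 650 CPM (log2 ratio -2.76, matched -1.65). Igfbp2 had 60.1 against 295 CPM and Penk, the enkephalin precursor, 85.1 against 452 CPM. Penk was found in 16.8% of dividing and 20.9% of other cells and had a log2 ratio of -0.73 when matched. The chemokine gene Cxcl12 had 160 against 414 CPM and the PDGF receptor gene Pdgfra 37.6 against 93.4 CPM. Ptgds and Apod had the lowest ratios of any fibroblast class, and Ptgds, Apod and Igfbp2 stayed past 2-fold at matched depth. Hat1, a histone acetyltransferase for newly made histones, was higher, with 101 against 31.7 CPM. Hist1h2ak, a replication-linked histone that the chromatin list left out, had 166 against 1.82 CPM.

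Cell-cycle brakes and G1 genes did not form a single pattern. The list of CDK inhibitors and quiescence genes had medians of -0.55, -0.37 and -0.62 in the 3 fibroblast classes, with 2, 2 and 0 genes higher and 1, 3 and 1 lower of 12, 12 and 9, beside 4.82%, 6.36% and 2.35% of all tested genes higher and 1.26%, 2.04% and 1.87% lower. The higher ones in both hearts were Cdkn2c and Cdkn2d, the INK4 inhibitors p18 and p19. Cdkn2d had 133 against 21.5 CPM in heart infarct and 244 against 28.9 CPM in heart peri-infarct. Cdkn2c had 121 against 28.2 CPM and 211 against 34.9 CPM. Cdkn2c stands on the G2 and M list too. The lower ones included Cdkn1c (p57), with 31.2 against 75.7 CPM in heart peri-infarct and 59.7 against 182 CPM in brain infarct. Cdkn1a (p21) had log2 ratios of -0.64, 0.13 and -0.56, with no common direction. Ccnd1, cyclin D1 of the G1 entry step, was higher in both hearts, with 77.3 against 33.6 CPM and 198 against 88.1 CPM. Ccnd2 was not, with log2 ratios of -0.54 and -0.68.

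In the fibroblast classes of heart infarct, heart peri-infarct and brain infarct 1 of 15 (Acta2, upward), 0 of 15 and 0 of 13 contractile genes passed 2-fold. Over all tested genes 4.82%, 6.36% and 2.35% were higher and 1.26%, 2.04% and 1.87% lower. The contractile and matrix counts are near these shares. Contractile lists had medians of 0.42, 0.37 and 0.12 that became 0.14, 0.06 and 0.04 at matched depth. In dividing heart infarct fibroblasts, 7 of 8 smooth muscle markers were higher as well, at 208 against 113 CPM in sum, and cardiomyocyte markers stood at 40.2 against 17.8 CPM. The smooth muscle sum was 141 against 171 CPM in heart peri-infarct and 42.6 against 36.2 CPM in brain infarct. The part of these other cell types was not tested. Acta2, the actin of myofibroblasts, had 1331 against 644 CPM in heart infarct, 607 against 393 CPM in heart peri-infarct and 1201 against 827 CPM in brain infarct. Its log2 ratio of 1.05 in heart infarct was 0.29 with matched cells, and in brain infarct 0.54 became 0.27. At 3000 UMIs per cell, Acta2 was found in 65.7%, 43.4% and 77.8% of dividing fibroblast-class cells and in 38.7%, 23.3% and 50.96% of the others, beside 7.43%, 3.97% and 1.83% of leukocytes that were not dividing. At this depth the share of fibroblasts with Acta2 was thus larger in dividing than in other cells of each library. These shares use all other cells, not those matched in UMI total. Col1a1 had 5200 against 6795 CPM, 2612 against 3167 CPM and 6819 against 7423 CPM in the same order. The matrix lists had medians of -0.26, -0.03 and -0.09. Past the fold were 1 of 25 genes (lower), 1 of 25 (higher) and 1 of 22 (lower). The matrix gene Tnc, past it at 108 against 45.6 CPM in heart peri-infarct, had a log2 ratio of -0.06 against matched cells. Ccl2, a monocyte chemokine, was higher in heart peri-infarct with 453 against 155 CPM, and kept its log2 ratio of 1.54 at matched depth.

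Dividing pericytes of heart infarct, 74 cells against 870, had less of their own marker genes. These genes also set the class of a cell, dividing or not. Of 8 pericyte genes 4 were at least 2-fold lower, beside 4.75% of all tested genes, with a list median of -1.01, beside 0.02 over all tested genes. Kcnj8 had 306 CPM in dividing and 660 CPM in other pericytes, Rgs5, a G-protein regulator, 4542 against 9367 CPM, and Colec11, a collectin, 284 against 1032 CPM. Vtn (vitronectin) had 190 against 557 CPM. With depth-matched cells their log2 ratios were -0.49, -0.41, -0.76 and -0.53, none of them 2-fold. The depth gap was wide here, with medians of 13465 against 4731 UMIs, and the contrast in pericyte genes moved with it. At 3000 UMIs, Kcnj8 was found in 51.4% of dividing and 72.6% of other pericytes of heart infarct, but in 77.1% and 79.9% in heart peri-infarct. Higd1b was found in 82.4% and 75.9% in heart infarct. Col1a1 had 1102 against 1015 CPM. Acta2 had 5503 against 3136 CPM and a log2 ratio of 0.81 that was 0.01 at matched depth.

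Stress genes had the lowest median of the tested lists in dividing pericytes. Of 19 tested genes on the list of dissociation stress, the early genes switched on while tissue is digested, 11 were at least 2-fold lower and 1 higher, with a median of -1.24, beside 4.75% of all tested genes lower. The fibroblast classes had medians of -0.50, -0.45 and -0.39, with none lower, and endothelium -0.29. Fos had 747 against 2067 CPM (ratio interval 0.336 to 0.388), Egr1 173 against 604 CPM and Junb 413 against 1218 CPM. At matched depth the list median was -1.15 and these 3 genes had log2 ratios of -1.15, -1.55 and -1.30. The transcription factor gene Klf4 had 24.1 against 108 CPM, and Igfbp5 225 against 1305 CPM. Apoe had 43.6 against 391 CPM. Beside these, 9 of 9 other macrophage markers were lower, at 19.5 against 128 CPM in sum, with C1qb, Adgre1 and Mrc1 at 0 in the dividing pericytes. The part of macrophage RNA was not tested. The highest gene outside the cycle lists, Slpi, had 130 against 5.60 CPM, yet 99.3% of its UMIs came from 1 cell and its log2 ratio was 0.19 without doublet marks.

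Dividing endothelium of heart peri-infarct, 81 cells against 1009, was low in Sema3g, Vegfc and mural genes. Of the 8 endothelial genes, which also set the class, 7 were lower, at 5404 against 6630 CPM in sum. Past the fold was 1 of 8, beside 3.09% of all tested genes lower. It was Ptprb, a junctional phosphatase, with 302 against 831 CPM, while Cdh5 had 970 against 988 CPM. Sema3g, a semaphorin of arterial endothelium, had 10.0 against 94.3 CPM and Vegfc, the lymphatic growth factor, 13.8 against 116 CPM. The CPM ratio of Sema3g had an exact counting interval of 0.0604 to 0.173. They were found in 10 and 11 dividing cells, and at matched depth their log2 ratios were -2.94 and -2.85. Cxcl12 had 726 against 2116 CPM, the VEGF receptor gene Flt1 511 against 1129 CPM, and Cdkn1c 100.4 against 386 CPM. Nav2, a neuron navigator, was the highest gene outside the cycle lists after Hist1h2ak, with 114 against 8.89 CPM in 55 dividing cells. Mest, an imprinted gene, had 309 against 71.2 CPM, Hdgf, a chromatin-bound growth factor and Arl4c, a small GTPase, had log2 ratios of 1.86 and 2.35. Nav2 and Mest had log2 ratios of 3.23 and 1.84 at matched depth.

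Mural genes were low in dividing endothelium as whole lists. All 8 smooth muscle markers were lower, at 114 against 447 CPM in sum, with Actg2 at 0, and all 8 pericyte markers were lower, at 968 against 2965 CPM. The contractile list had 6 of 15 genes at least 2-fold lower, beside 3.09% of all tested genes, and a median of -0.65. Myh11 had 17.5 against 164 CPM and Tagln (transgelin) 30.7 against 343 CPM, and in each 85.7% of the dividing cells' UMIs came from 1 cell. Acta2 had 68.8 against 473 CPM and Notch3, a mural receptor, 15.6 against 109 CPM. Macrophage markers without Apoe were lower as well, at 12.5 against 129 CPM, with C1qc, Adgre1, Trem2 and Ctss at 0. Fibroblast markers went the other way, at 731 against 566 CPM in sum, with 1 of 8 lower. Of the dividing cells' Dcn UMIs 34.9% came from 1 cell. The part of mural, macrophage and fibroblast RNA in the endothelial differences was not tested.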

How the data were processed

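The values that the authors deposited for these 10x 3' version 3 libraries are unscaled UMI counts. Per the submitters' processing notes, Cell Ranger 3.0.2 made them on mm10, and Seurat 3 is named as well. Library totals were 107892408, 95248788 and 54810989 UMIs for heart infarct, heart peri-infarct and brain infarct. The members and gene lists were chosen with earlier results of these data known. The genes of the per-cell G2 and M sum and the 14 genes shared by 3 fibroblast classes were chosen after values were seen, and 1 of the 14 is not reported here.

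Thinning drew 3000 UMIs per cell without replacement (seed 1). Counts of a class were summed and scaled to CPM, with a pseudocount of 1 CPM. For matched depth, each dividing cell, deepest first, took the unused other cell nearest in UMIs. Named genes were the 6 markers, lineage markers, in each comparison the 10 top and 10 bottom ratios outside the cycle, chromatin and tubulin lists and without ribosomal, mitochondrial, predicted or haemoglobin genes, and up to 4 members of each list by size of ratio. Other genes named (H2afz, Cdkn1a, and Acta2, Col1a1, Cdh5 or Cdkn2c where outside that rule) were chosen after their values were seen. Doublets were scored with Scrublet in scanpy 1.11.5. Its automatic threshold marked 0, 184 and 12 cells, so the highest scores were marked at 0.8% per 1000 barcodes and kept in, except in an alternative. Intervals are exact Clopper-Pearson (scipy 1.17.1). Scripts used numpy 2.4.6, pandas 2.3.3 and Python 3.11.15. edgeR 4.0.16 gave TMM scaling as an alternative only. The calculation of gene ratios was tested on simulated counts with known changes, while class calls and depth matching were not. Promoters came from RefSeq.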

Additional observations from a re-analysis of the deposited data

How the results depend on the processing

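The cutoff and depth set the share of dividing cells more than any other choice. For heart infarct, heart peri-infarct and brain infarct it was 9.09%, 7.37% and 33.3% with 2 or more markers, 5.41%, 4.98% and 21.4% with 4 or more, and 3.96%, 4.17% and 10.98% with the rule on thinned cells. Without doublet marks it was 5.97% for heart infarct and 4.87% for the tissue around it. With at most 5% mitochondrial UMIs it was 6.62% in heart peri-infarct and 27.9% in brain infarct. Leaving out barcodes found in another library, an alternative added after seeing the data, gave 23.36% in brain infarct. The fibroblast share of dividing brain cells was 90.9% at 6000 UMIs and 90.8% without thinning. With no filter on CPM, 737 genes were higher and 241 lower in heart infarct fibroblasts, 922 and 514 in heart peri-infarct, 459 and 579 in brain infarct, 1013 and 1683 in pericytes and 820 and 1182 in endothelium. With a mean of at least 100 CPM, 68 were higher in heart infarct fibroblasts, 105 higher and 36 lower in heart peri-infarct, 25 and 27 in brain infarct, 90 and 85 in pericytes and 72 and 53 in endothelium. Matched depth left 16, 39, 15 and 95 lower genes in the 3 fibroblast classes and in pericytes. In brain infarct fibroblasts 91 genes were lower by the mean of the cells' own CPM, and 117 against other cells with no marker. Sign changes were counted only among genes at least 2-fold apart with the main settings. Ratios of 8 such gene results changed sign. With matched depth these were Tnc in heart peri-infarct fibroblasts (-0.057) and Timp1 (-0.10), Actg2 (-0.38) and Cthrc1 (-0.23) in pericytes. Without doublet marks they were Cthrc1 in pericytes (-0.74) and Postn in endothelium (-0.51), and with 4 or more markers Cthrc1 (-0.56) and Slpi (-3.90) in pericytes. The cause was not tested, except that fewer genes are tested at 100 CPM and more with no filter. Over the alternatives that can alter a ratio (the CPM filters cannot), 85 gene ratios moved past 2-fold and 59 moved inside it. No paired analysis was possible because each group is 1 library. Genes under 50 CPM and classes under 50 dividing cells were beyond the depth of the gene comparisons.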

Other observations

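The smaller classes were set by these same marker genes, so their detection is a description. The 27 dividing mesothelial cells of heart infarct had UMIs of Krt19, a keratin, in 88.9% and of Msln (mesothelin) in 77.8% at 3000 UMIs per cell, beside 87.2% and 93.3% of the other mesothelial cells, and Upk3b (uroplakin) in 70.4% beside 91.6%. The 22 of heart peri-infarct had Krt19 in 86.4%, Msln in 90.9% and Upk3b in 22 of 22, beside 94.2% of the others. Both groups also held a median of 3 of 8 fibroblast genes, and Col1a1 was found in 96.3% and 90.9%. Acta2 was found in 55.6% of dividing and 23.5% of other mesothelial cells in heart infarct and in 45.5% and 20.8% in heart peri-infarct. Mesothelial markers were also higher in the dividing fibroblast classes of the hearts, at 277 against 98.9 CPM in sum in heart infarct and 125 against 52.1 CPM in heart peri-infarct.

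The 20 dividing leukocytes of brain infarct all had UMIs of Tyrobp and C1qa, genes of macrophages and microglia, and 4 of the 20 had P2ry12, a microglial receptor gene. Among 109 other leukocytes the shares were 96.3%, 80.7% and 15.6%. Ptprc was found in 3 of the 20 and in 33.9% of the others. Of the 11 dividing leukocytes of heart infarct, 9 had C1qa and none had P2ry12. The 18 dividing smooth muscle cells of heart infarct had Myh11 in 94.4% and Acta2 in all 18, and Col1a1 in 55.6% against 28.6% of the other smooth muscle cells.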
